A study of Homo sapiens with 12 samples.

Results

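The genes described here encode the protein subunits of the mitochondrial ribosome. They were taken from the deposited expression table of HLE cells as the protein-coding genes whose current symbol is MRPL or MRPS followed by a number and an optional letter, with at least 1 CPM (reads per 1000000 reads on genes) in at least 2 of the 12 libraries. The symbol rule was met by 77 of the 26258 genes listed, and all 77 had at least 1 CPM in each of the 12 libraries, so the filter on low values removed none of them. By symbol, 49 belong to the large subunit (MRPL) and 28 to the small subunit (MRPS). Solved structures place the products of *MRPS30* and *MRPS18A* in the large subunit, which gives 51 and 26 genes, and 47 of the 77 were listed as having a bacterial counterpart and 30 as specific to mitochondria. That listing puts *MRPS18A* (universal name mL66) in the first class and *MRPS18B* (mS40) in the second. Both names carry the prefix of mitochondria-specific proteins, so the division is not strict. HLE is a human hepatocellular carcinoma cell line. The cells had received a control siRNA (siCtrl), a joint knockdown of YAP and TAZ (siY/T) or a knockdown of ATF4 (siATF4), and each of these was kept in the vehicle DMSO or in 5 µM Sorafenib (Srf), an inhibitor of several kinases, in 6 groups of 2 libraries. All 6 groups are therefore transfected cells of 1 line, the siY/T groups lack a single knockdown of YAP or TAZ, and the labels give no duration of treatment. A figure legend of the paper gives a duration, and a dose somewhat above that of the labels, for RNA sequencing of these knockdowns in Sorafenib. The dose stated here follows the labels. The study's methods speak of biological triplicates, whereas the table holds 2 libraries per group and the labels do not say whether these came from separate cultures. The p-values below therefore measure the spread between these libraries, which may be technical.

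The mitochondrial ribosome makes the few membrane proteins of the respiratory chain and the ATP synthase that are encoded by mitochondrial DNA. Its ribosomal RNAs come from mitochondrial DNA as well, whereas its proteins are all encoded in the nucleus, made in the cytosol and imported, so the transcripts measured here stand for the nuclear side of a joint assembly. The small subunit binds the mRNA and decodes it, and the large subunit joins the amino acids and passes the growing chain through its exit tunnel to the inner membrane. In liver, a tissue rich in mitochondria, this machinery serves oxidative metabolism. The deposited table listed 0 transcripts of the mitochondrial genome, so the other side of the assembly was not analysed here.

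Depth was between 41408348 and 53619732 reads on genes per library, and the reads of a single one of the 77 genes ranged from 517 to 13164 per library, so counting error is small for every gene described. The siRNA targets were lower in their own groups in both arms: *YAP1* fell by 2.41 with siY/T in DMSO on the log2 scale, *WWTR1*, which encodes TAZ, fell by 1.52 with siY/T in Srf, and *ATF4* fell by 1.33 with siATF4 in DMSO and by 2.47 in Srf (limma, highest adjusted p = 3.83e-08). The targets also moved in each other's groups, since *ATF4* fell by 0.30 in DMSO and 0.63 in Srf with siY/T, and *WWTR1* fell by 0.70 with siATF4 in DMSO. Of 8 hepatocyte markers, *ALB*, *AFP*, *APOA1*, *TTR*, *HNF4A* and *TF* were at most 0.117 CPM in any library, *SERPINA1* at most 2.32 CPM, and *FGB* between 64.4 and 431 CPM, while of 6 leukocyte and endothelial markers *PTPRC*, *CD3E*, *PECAM1*, *VWF* and *CDH5* were at most 0.202 CPM and *CD68*, a lysosomal protein of macrophages, was between 19.8 and 75.0 CPM. The epithelial markers *KRT8* and *KRT18* and the mesenchymal marker *VIM* were between 312 and 2916 CPM throughout, whereas the epithelial *EPCAM* and *CDH1* were at most 7.93 CPM and the mesenchymal *CDH2* and *FN1* between 3.77 and 79.6 CPM. The 12 libraries were fitted together on the scale log2(CPM + 0.5) with limma, over the 13515 genes that passed the same filter, and a gene was called at a Benjamini-Hochberg adjusted P under 0.05. The study's own threshold, an unadjusted P under 0.05 together with a log2 change of 0.58 or more in size, is given beside it. In bulk RNA of this kind, fewer cells that express a gene and less RNA per cell cannot be told apart.

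Promoter sequences were available for 69 of the 77 genes from a RefSeq table of GRCh38.p14, each with 250 bases before and 50 bases after the start of the gene. The 5 shown are those of *MRPL42*, *MRPS12* and *MRPS10*, which moved in opposite directions with siATF4 and siY/T in DMSO, of *MRPL50*, whose response to siY/T changed sign with Srf, and of *MRPS14*, which went against the other genes with siATF4. They run 5′ to 3′ on the strand of the gene, at chr12:93467264-93467563 (+), chr19:38930694-38930993 (+), chr6:42217812-42218111 (-), chr9:101398569-101398868 (-) and chr1:175023376-175023675 (-). Capitals mark matches to CCGGAAG, a binding motif of ETS factors such as GABP, to AAGATGGCG, a motif of YY1, or to GGAATG, a motif of the TEAD factors that YAP and TAZ bind, on either strand (in *MRPS14* the capitals are the reverse complement of the TEAD motif).
MRPL42: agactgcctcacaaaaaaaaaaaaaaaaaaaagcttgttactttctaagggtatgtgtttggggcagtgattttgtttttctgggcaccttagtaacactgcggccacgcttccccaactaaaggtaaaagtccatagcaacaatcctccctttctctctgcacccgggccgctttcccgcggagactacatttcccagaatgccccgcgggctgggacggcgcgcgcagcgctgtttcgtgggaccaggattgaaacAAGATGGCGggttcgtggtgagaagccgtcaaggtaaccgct
MRPS12: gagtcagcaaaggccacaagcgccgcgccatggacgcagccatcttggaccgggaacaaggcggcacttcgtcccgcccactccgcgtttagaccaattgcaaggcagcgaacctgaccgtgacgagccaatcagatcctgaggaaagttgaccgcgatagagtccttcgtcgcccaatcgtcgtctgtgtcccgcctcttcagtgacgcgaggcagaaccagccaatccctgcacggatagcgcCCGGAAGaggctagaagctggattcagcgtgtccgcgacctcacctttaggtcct
MRPS10: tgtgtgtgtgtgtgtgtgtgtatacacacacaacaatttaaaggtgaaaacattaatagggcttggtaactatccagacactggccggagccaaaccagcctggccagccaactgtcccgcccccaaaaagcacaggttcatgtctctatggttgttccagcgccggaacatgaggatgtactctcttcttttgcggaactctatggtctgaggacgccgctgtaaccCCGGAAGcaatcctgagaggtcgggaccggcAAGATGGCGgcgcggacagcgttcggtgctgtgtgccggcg
MRPL50: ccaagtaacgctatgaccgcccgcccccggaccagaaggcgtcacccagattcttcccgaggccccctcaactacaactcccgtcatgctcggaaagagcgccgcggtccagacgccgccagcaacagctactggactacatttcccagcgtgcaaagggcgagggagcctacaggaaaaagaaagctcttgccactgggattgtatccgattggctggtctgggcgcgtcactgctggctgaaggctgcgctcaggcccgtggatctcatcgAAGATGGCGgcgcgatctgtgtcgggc
MRPS14: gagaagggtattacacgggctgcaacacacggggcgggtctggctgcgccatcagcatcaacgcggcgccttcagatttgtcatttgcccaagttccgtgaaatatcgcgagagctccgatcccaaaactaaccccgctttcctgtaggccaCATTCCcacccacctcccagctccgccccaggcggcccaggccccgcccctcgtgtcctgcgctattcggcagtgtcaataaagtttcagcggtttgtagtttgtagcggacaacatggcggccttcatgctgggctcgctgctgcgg

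Over all 69 promoters the ETS motif was found in 29 (42.0%), against 19.6% of the 10711 promoters of tested genes and 10.7% of all 27305 in the table. The YY1 motif was found in 13 (18.8%) against 3.98% and 1.85%. The TEAD motif was in 10 promoters (14.5%, against 10.8% of tested genes) and the NRF1 motif CGCATGCG in 3 (4.35%, against 4.14%). Of the 2 motifs bound by ATF4, the composite element TGATGNAA was found in 1 promoter, that of *MRPL55* (1.45%, against 1.70%), and the cyclic AMP response element TGACGTCA in 0 (against 3.32%). The E-box CACGTG was in 6 (8.70%, against 10.3%). The ETS motif was in 17 of 42 large and 12 of 27 small subunit promoters, the YY1 motif in 8 and 5, and the TEAD motif in 8 and 2. The ETS motif was in 22 of the 50 promoters of genes that rose with siATF4 in Srf and in 7 of the other 19. A match is only a description of the letters, and none of the 7 motifs was found in 19 promoters.

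The 77 genes were spread over 21 chromosomes, and their levels differed widely. Per kilobase of the MANE transcript, which need not be the model the authors counted on, the mean level over the 12 libraries was highest for *MRPL12* (199 CPM per kilobase), *MRPL51* (159) and *MRPL24* (115). It was lowest for *MRPL42* (3.33), whose MANE transcript is 15557 bases long, *MRPL50* (5.71) and *MRPS14* (8.21). *MRPL12* is the flexible stalk protein that is present in several copies per ribosome. Without division by length, most reads came from *MRPS27* (mean 239 CPM), *MRPL12* (201 CPM) and *MRPS16* (168 CPM), and fewest from *MRPS31* (16.4 CPM), *MRPS18C* (16.7 CPM) and *MRPL1* (16.8 CPM). Uniquely mapping reads were counted, and 41 of the genes have at least 1 named pseudogene that could take reads away from them. In 8 genes the exons share bases with a neighbour on GRCh37, and the strand setting of the counting is not given for the 7 with an antisense neighbour, *MRPL47*, *MRPL49*, *MRPS18A*, *MRPS18C*, *MRPS25*, *MRPS34* and *MRPS7*. *RSPH9*, which shares 705 bases with *MRPS18A*, was listed at 0 in all libraries, and *EME2*, which shares 325 with *MRPS34*, was between 0.417 and 1.59 CPM, far below those 2 genes. For the other 5 a share of antisense reads was not tested. *MRPS6* shares 168 bases with *SLC5A3* on the same strand.

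Summed over the 77 genes, the level was highest with siATF4 and lowest with siY/T in both arms. In DMSO it was 4920.1 and 4965 CPM in the siCtrl libraries, 4636 and 4305 CPM with siY/T and 5588 and 5524 CPM with siATF4. In Srf it was 4238 and 4339.9 CPM with siCtrl, 4134 and 4217 CPM with siY/T and 5093 and 5257 CPM with siATF4. The siATF4 libraries lay above the siCtrl libraries of their arm without overlap, the siY/T libraries lay below them, and each siRNA group was lower in Srf than in DMSO. The gap between siY/T and siCtrl in Srf, means of 4175 ± 58.5 and 4289 ± 71.7 CPM (SD, n = 2), was not much wider than the spread between libraries. The sums are given without a test, since the genes were grouped with results known.

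**Figure D1:**
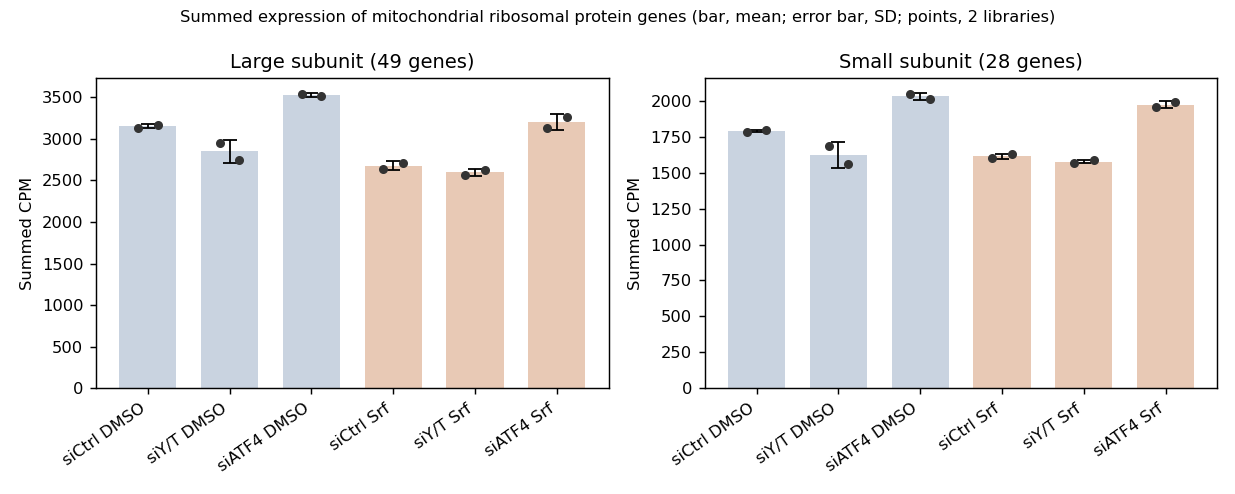
Summed CPM of the 49 large subunit genes (left) and the 28 small subunit genes (right) in the 6 groups, with bars for the mean, error bars for the SD and points for the 2 libraries, blue for DMSO and orange for Sorafenib. Both subunits were highest in the siATF4 groups of each arm, and the large subunit sums were 3152 CPM in siCtrl DMSO and 2675 CPM in siCtrl Srf.

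The ratio of summed large to small subunit CPM was lower in Srf. It was between 1.73 and 1.77 in the 6 DMSO libraries and between 1.60 and 1.67 in the 6 Srf libraries, so the arms did not overlap. The gap was narrower without *MRPL12*, the gene with the most reads in the large subunit, where the ratio was between 1.61 and 1.65 in DMSO and between 1.503 and 1.57 in Srf, still without overlap. *MRPS27*, the gene with the most reads in the small subunit, did not fall with Srf. Its means in DMSO and Srf were 234 and 242 CPM with siCtrl, 226 and 274 with siY/T, and 214 and 241 with siATF4. The separation of the arms rests on this gene. When it is left out of the small subunit sum, the arms overlap, since both siY/T Srf libraries then lie above both siATF4 DMSO libraries. Within each siRNA group the ratio without it was still lower in Srf. Counting each gene equally, the mean log2 level of the large minus the small subunit was 0.014 and 0.029 in the siCtrl DMSO libraries and -0.0052 and -0.0010 in the siCtrl Srf libraries. It was 0.041 and 0.045 with siY/T and -0.013 and -0.0021 with siATF4 in DMSO, and 0.012 and 0.024 with siY/T and -0.071 and -0.044 with siATF4 in Srf. On this measure the arms overlapped, each siRNA group was lower in Srf, and the siATF4 libraries were lowest within each arm. The median fold changes of the subunits with Srf in siCtrl cells were alike, -0.22 and -0.20 on the log2 scale.

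To see what loss of ATF4 did to these genes without the drug, siATF4 was compared with siCtrl in DMSO. Of the 77 genes 43 rose and 6 fell, 55.8% and 7.79%, against 33.4% of all tested genes called higher and 34.4% called lower. The median log2 fold change was 0.15 over the 77 genes and -0.0013 over all genes tested. In the large subunit 26 of 49 rose and 3 fell (median 0.15), and in the small subunit 17 of 28 rose and 3 fell (median 0.17). Of the 47 genes with a bacterial counterpart 28 rose, and of the 30 specific to mitochondria 15 rose. At the study's threshold 4 of the 77 were higher (8.57% of tested genes) and 0 lower (14.1%).

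*MRPL36*, a small zinc-binding protein of the large subunit (chromosome 5, 1798499 to 1801480 on GRCh37), changed most. It was 15.9 and 14.7 CPM in the siCtrl DMSO libraries and 25.3 CPM in both siATF4 DMSO libraries, an increase of 0.71 on the log2 scale (SE 0.065, limma, adjusted p = 5.28e-07). *MRPS2*, a small subunit protein beside the path of the mRNA (chromosome 9, 138391830 to 138396519), was 47.9 and 48.4 CPM with siCtrl and 77.1 and 75.0 CPM with siATF4, a rise of 0.65 (SE 0.053, limma, adjusted p = 1.85e-07). The groups did not overlap for either gene. *MRPS21* rose by 0.64, *MRPL4*, which lines the upper part of the exit tunnel in bacteria, by 0.60, *MRPL42* by 0.56, *MRPL52* by 0.51, *MRPL40* by 0.49, *MRPS33* by 0.46, *MRPS25* by 0.41 and *MRPS12*, the decoding centre protein in which bacterial streptomycin resistance arises, by 0.52.

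Few genes went the other way. *MRPS14*, a protein of the head of the small subunit (chromosome 1, 174979925 to 174992561), was 18.8 and 19.0 CPM with siCtrl and 13.6 and 12.7 CPM with siATF4, and it fell by 0.51 (SE 0.068, limma, adjusted p = 2.10e-05). *MRPL43*, specific to mitochondria, was 66.5 and 66.1 CPM with siCtrl and 50.5 and 49.6 CPM with siATF4, a fall of 0.40 on the log2 scale (SE 0.050, limma, adjusted p = 9.96e-06). *MRPL39* fell by 0.35, *MRPL19* by 0.18, *MRPS7* by 0.17 and *MRPS27* by 0.13. Of the 49 calls, 30 rises and 4 falls held under each of the 10 other settings tried for single genes and with each of the 12 libraries left out in turn.

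**Figure D2:**
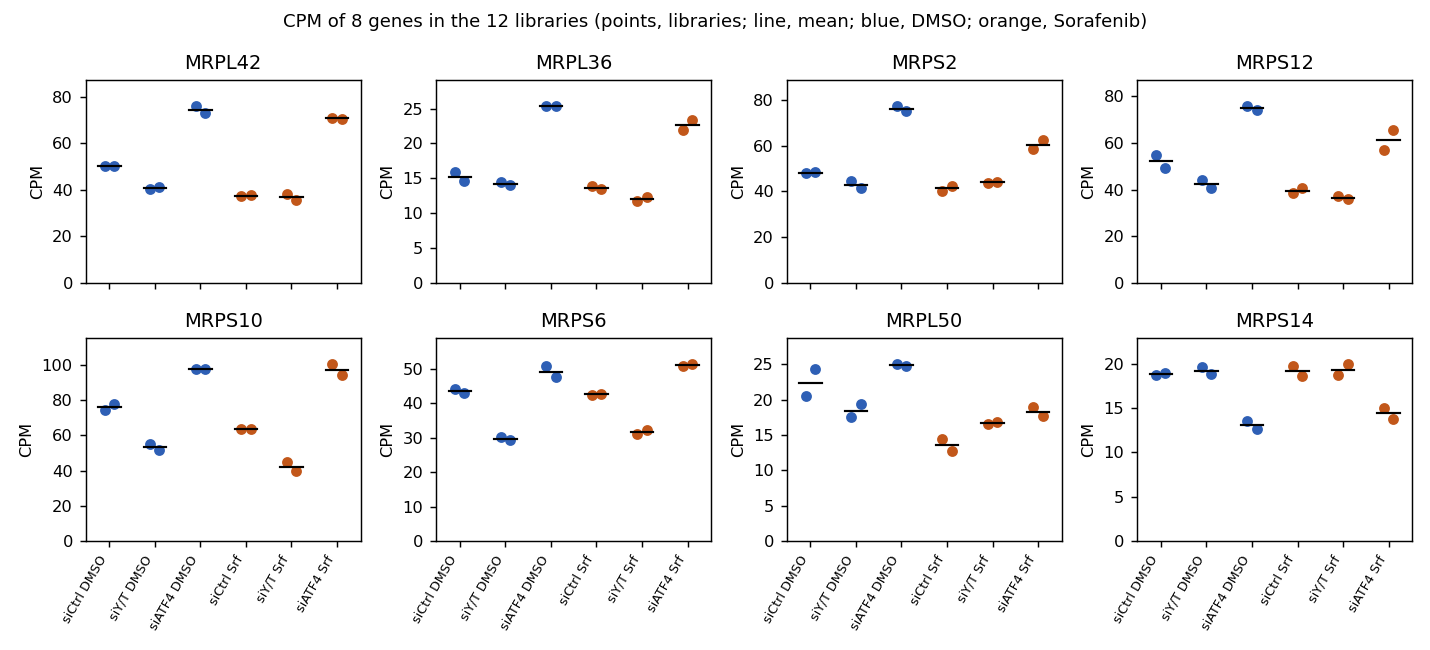
CPM of 8 genes in the 12 libraries, 1 point per library and a line for the mean of each group, blue for DMSO and orange for Sorafenib, each panel with its own axis from 0. *MRPL42*, *MRPL36*, *MRPS2* and *MRPS12* were highest in both siATF4 groups, *MRPS10* and *MRPS6* lowest in both siY/T groups, *MRPL50* lowest in siCtrl Srf, and *MRPS14* lowest in both siATF4 groups.

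In Srf, where the *ATF4* transcript of siCtrl cells was higher (484 and 492 CPM, against 248 and 249 CPM in DMSO), siATF4 was again compared with siCtrl. Of the 77 genes 55 rose and 7 fell, 71.4% and 9.09%, against 35.8% and 37.4% of all tested genes, with a median of 0.28 against -0.0082 over all genes. In the small subunit 24 of 28 rose and 2 fell (median 0.32), and in the large subunit 31 of 49 rose and 5 fell (median 0.20). The study's threshold left 9 higher (10.3% of tested genes) and 0 lower (18.7%). Of the 62 calls, 46 rises and 6 falls held under every setting and left-out library.

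*MRPL42* (chromosome 12, 93861290 to 93909990), a large subunit protein with no bacterial counterpart, showed the largest fold change of any of the 77 genes. It was 37.4 and 37.6 CPM in siCtrl Srf and 70.6 and 70.5 CPM in siATF4 Srf cells, a rise of 0.90 on the log2 scale (SE 0.048, limma, adjusted p = 2.39e-09). *MRPS25*, a small subunit protein specific to mitochondria, was 56.9 and 57.6 CPM with siCtrl and 92.0 and 92.1 CPM with siATF4, a rise of 0.68 (SE 0.044, limma, adjusted p = 1.45e-08). Its exons share 762 bases with *NR2C2* on the other strand, which changed by 0.14 (limma, adjusted p = 0.0528). *MRPL3*, a core protein near the peptidyl transferase centre, rose by 0.68, *MRPL36* by 0.71, *MRPL4* by 0.63, *MRPS12* by 0.62, *MRPS10* by 0.61, *MRPL33* by 0.60, *MRPS2* by 0.54 and *MRPS18B* by 0.52. *MRPS14* was 19.7 and 18.7 CPM with siCtrl and 15.1 and 13.8 CPM with siATF4 and fell by 0.40 (SE 0.068, limma, adjusted p = 0.000137). *MRPL53* fell by 0.37, *MRPS18A* by 0.30, *MRPL44* by 0.24, *MRPL10* by 0.22, *MRPL43* by 0.21 and *MRPL28* by 0.18.

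Both siATF4 comparisons rest on separate libraries, and 40 of the 77 genes (51.9%) rose in both, against 24.2% of all tested genes. These 40 were 93.0% of those that rose in DMSO and 72.7% of those that rose in Srf. *MRPL43* and *MRPS14* fell in both (2.6%, against 26.3% of tested genes). Across the 77 genes the log2 fold changes in the 2 arms had a Pearson correlation of 0.74 and a Spearman correlation of 0.75, as a description over genes, which are not independent.

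The response to siATF4 itself differed between the arms for 25 of the 77 genes. The effect in Srf minus that in DMSO was called higher for 20 (26%, against 19.3% of tested genes) and lower for 5 (6.49%, against 21.8%). By the study's threshold 0 were called either way (4.37% of tested genes higher, 8.09% lower). *MRPS28* (0.44, SE 0.075, limma, adjusted p = 0.000592), *MRPL33* (0.43) and *MRPL35* (0.39) gained most. *MRPS28* was 40.5 and 40.8 CPM in siCtrl DMSO cells, 38.8 and 38.1 CPM in siATF4 DMSO, 26.9 and 27.4 CPM in siCtrl Srf and 35.3 and 34.6 CPM in siATF4 Srf cells, and it rose with siATF4 by 0.36 in Srf while its change of -0.08 in DMSO was not called. *MRPL10*, which anchors the copies of MRPL12 on the stalk (chromosome 17, 45900638 to 45908907), went from 57.8 and 58.7 to 67.9 and 65.5 CPM with siATF4 in DMSO, and from 73.8 and 73.2 to 62.7 and 63.5 CPM in Srf. It rose by 0.19 in one arm and fell by 0.22 in the other, a difference of -0.41 (SE 0.066, limma, adjusted p = 0.000332). *MRPS18A* differed by -0.38: it was 45.8 and 43.7 CPM in siATF4 DMSO and 25.8 and 27.0 CPM in siATF4 Srf cells, while its antisense neighbour *RSPH9* was listed at 0. The number of calls was 16 without either siATF4 DMSO library (13 higher and 3 lower each time) and 16 without siCtrl Srf replicate 1 (12 higher and 4 lower), and 12 higher and 2 lower calls held under every setting and left-out library, those of *MRPS28*, *MRPL33*, *MRPL35*, *MRPL10* and *MRPS18A* among them.

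**Figure D3:**
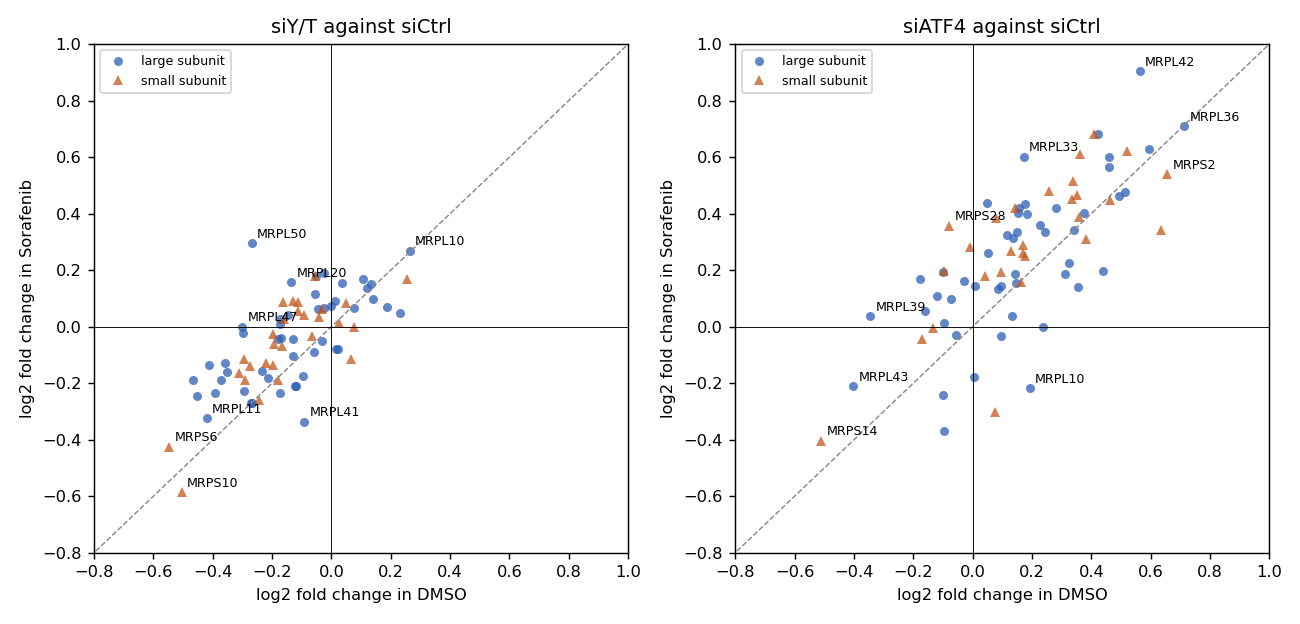
Log2 fold change of each of the 77 genes against siCtrl in DMSO (horizontal) and in Sorafenib (vertical), for siY/T (left) and siATF4 (right), with circles for the large and triangles for the small subunit and a dashed line of equal change. Most siATF4 points lie in the upper right quadrant, with *MRPL42* at 0.56 and 0.90, while *MRPL50* lies at -0.27 and 0.29 in the siY/T panel.

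To ask whether YAP and TAZ bear on the same genes, siY/T was compared with siCtrl in DMSO. Of the 77 genes 38 fell and 4 rose, 49.4% and 5.19%, against 22.8% and 37.3% of all tested genes. The median was -0.13 over the 77 genes and 0.069 over all genes tested. In the small subunit 15 of 28 fell and 1 rose (median -0.16), and in the large subunit 23 of 49 fell and 3 rose (median -0.13). The genes with a bacterial counterpart fell in 28 of 47 cases and those specific to mitochondria in 10 of 30. At the study's threshold 0 of the 77 were lower (3.61% of tested genes) and 0 higher (11%). The 2 siY/T DMSO libraries differed by a median of 0.10 over the 77 genes, so the count of falls was 42 without the first and 28 without the second. It was 25 without siCtrl DMSO replicate 2, and 23 of the falls held under every setting and left-out library.

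*MRPS6*, a protein of the platform of the small subunit (chromosome 21, 35445524 to 35515334), was 44.3 and 43.0 CPM with siCtrl and 30.1 and 29.4 CPM with siY/T, and fell by 0.55 on the log2 scale (SE 0.050, limma, adjusted p = 1.13e-06). *SLC5A3*, which shares exonic bases with it, fell by 0.36 in the same comparison. *MRPS10*, a protein of the head of the small subunit (chromosome 6, 42174545 to 42185599), was 74.1 and 78.0 CPM with siCtrl and 55.0 and 51.9 CPM with siY/T, a fall of 0.50 (SE 0.059, limma, adjusted p = 1.00e-05). The groups did not overlap in either case. The largest falls of the large subunit were those of *MRPL1* (-0.47), *MRPL15* (-0.45), *MRPL11* (-0.42), *MRPL19* (-0.41) and *MRPL12* (-0.39), 3 of which are stalk proteins. *MRPL10* was 57.8 and 58.7 CPM with siCtrl and 71.9 and 68.2 CPM with siY/T, a rise of 0.26 (SE 0.046, limma, adjusted p = 0.000300), and *MRPS21*, the counterpart of bacterial bS21, rose by 0.25. The other 2 rises, of *MRPL48* (0.23) and *MRPL43* (0.13), were no longer called without siY/T DMSO replicate 1, at 0.14 and 0.09, or without siCtrl DMSO replicate 1. After *MRPS10*, the falls of the small subunit were led by *MRPS18C* (-0.31), *MRPS12* (-0.29) and *MRPS15* (-0.29).

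With Srf in the medium, fewer of the genes changed with siY/T. Of the 77 genes 22 fell and 9 rose, 28.6% and 11.7%, against 18.8% and 30.2% of all tested genes, with a median of -0.04 against 0.053 over all genes. In the large subunit 15 fell and 7 rose, and in the small subunit 7 fell and 2 rose. The division into rises and falls depended on scaling, with 2 rises and 28 falls after TMM scaling and 4 and 31 after quantile normalization. It also depended on single libraries, with 10 falls and 4 rises without siCtrl Srf replicate 2 and 14 falls and 3 rises without siY/T Srf replicate 2. At the study's threshold 1 was lower (3.84% of tested genes) and 0 higher (6.11%), namely *MRPS10*. It was 63.5 and 63.4 CPM with siCtrl and 44.7 and 39.7 CPM with siY/T, and fell by 0.59 (SE 0.059, limma, adjusted p = 4.38e-06). *MRPS6* was 42.4 and 42.8 CPM with siCtrl and 31.0 and 32.3 CPM with siY/T and fell by 0.43 (SE 0.050, limma, adjusted p = 1.67e-05). *MRPL41* fell by 0.34, a call that was lost without siCtrl Srf replicate 2 (-0.24) or siY/T Srf replicate 1 (-0.25). *MRPL11* fell by 0.32, *MRPL4* and *MRPL52* each fell by 0.27, and *MRPS24* fell by 0.26. *MRPL10* rose by 0.27, and was the only rise that held under every setting and left-out library, beside 8 falls.

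Over the separate libraries of the 2 arms, 18 genes (23.4%, against 11.6% of tested genes) fell with siY/T in both, 11 of the large and 7 of the small subunit. They were 47.4% of those that fell in DMSO and 81.8% of those that fell in Srf. *MRPL10*, *MRPL43* and *MRPS21* rose in both (3.9%, against 23.2%), the last 2 not after TMM scaling in Srf, nor *MRPL43* after it in DMSO. The difference between the effects of siY/T in Srf and in DMSO was called for 8 genes, all higher in Srf (10.4%, against 7.81% of tested genes), and 0 lower (0%, against 14.2%). The study's threshold was passed by 0 either way (0.917% of tested genes higher, 4.37% lower). The largest was that of *MRPL50*, a large subunit protein specific to mitochondria (chromosome 9, 104149915 to 104160900). In DMSO it was 20.5 and 24.3 CPM with siCtrl and 17.5 and 19.4 CPM with siY/T, and in Srf 14.4 and 12.7 CPM with siCtrl and 16.5 and 16.9 CPM with siY/T. Its changes of -0.27 and 0.29 differed by 0.56 (SE 0.122, limma, adjusted p = 0.00677), and this was the only one of the 8 that held under every setting and left-out library, although the change in DMSO was not called without siCtrl DMSO replicate 2 (-0.15) or siY/T DMSO replicate 1 (-0.20), nor that in Srf without siCtrl Srf replicate 2 (0.21) or siY/T Srf replicate 2 (0.28). The count ranged from 2 calls without siCtrl DMSO replicate 2 to 24 without siY/T DMSO replicate 1, and it was 3 without siCtrl DMSO replicate 1, either siCtrl Srf library or siY/T Srf replicate 2, and 5 without siY/T Srf replicate 1.

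The effects of the 2 siRNAs on these genes were then set against each other. Within an arm both are compared with the same siCtrl libraries, so they were set side by side across arms, where no library is shared. Between siY/T in DMSO and siATF4 in Srf, 34 genes fell with siY/T and rose with siATF4 (44.2% of the 77, against 14.9% of tested genes), 89.5% of those that fell and 61.8% of those that rose. In the reverse sense 2 genes, *MRPL10* and *MRPL43*, rose with siY/T and fell with siATF4 (2.6%, against 23.4%), the second not called with siY/T after TMM scaling. Between siY/T in Srf and siATF4 in DMSO the overlap was smaller, with 14 genes that fell with siY/T and rose with siATF4 (18.2%, against 7.58% of tested genes) and *MRPL43* and *MRPS27* in the reverse sense (2.6%, against 13.5%). These 14 stand among 22 genes that fell with siY/T and 43 that rose with siATF4. Sets of such sizes share genes in either pair even without a link between the 2 effects, and any excess was not tested. Across the 77 genes Pearson's r was -0.50 for the first pair and -0.14 for the second, as a description. Within DMSO, *MRPL42* was 50.1 and 50.3 CPM with siCtrl, 40.4 and 41.0 CPM with siY/T and 75.8 and 73.0 CPM with siATF4, log2 fold changes of -0.30 and 0.56. Within Srf, *MRPS10* was 63.5 and 63.4, 44.7 and 39.7, and 100.4 and 94.1 CPM in the same order. In neither example did any of the 3 groups overlap.

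**Figure D4:**
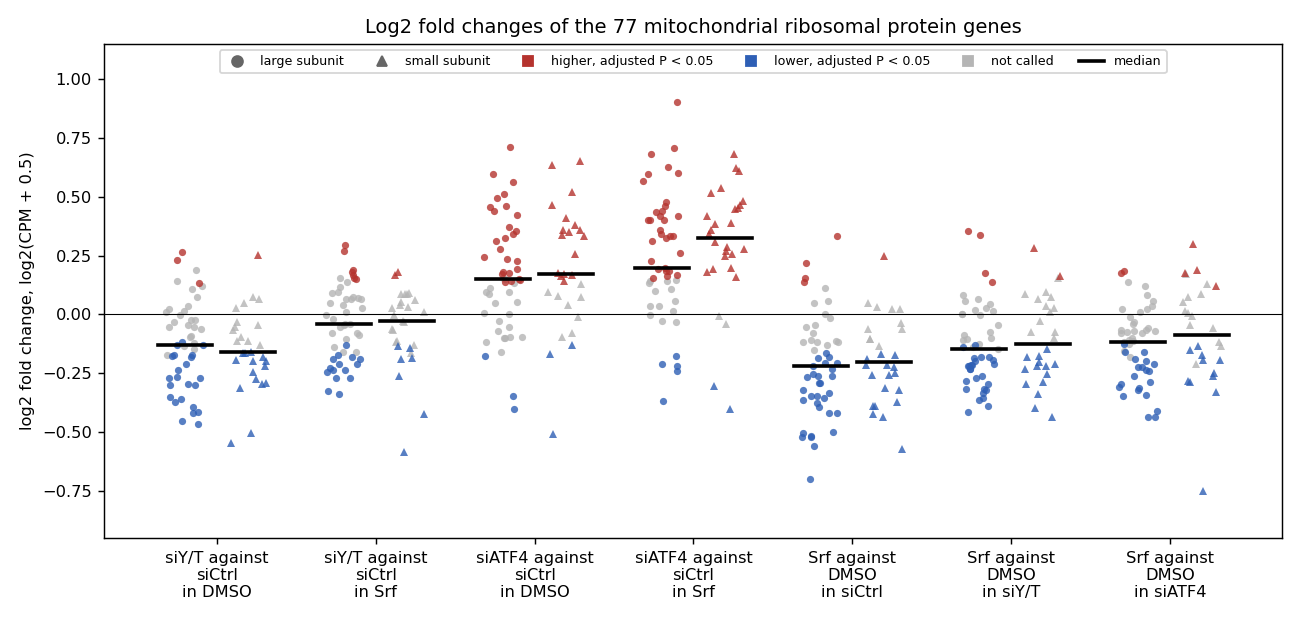
Log2 fold change of each of the 77 genes in the 7 pairwise comparisons, circles for the large and triangles for the small subunit, red for genes called higher, blue for genes called lower and grey for genes not called, with a black line at each subunit's median. The medians of both subunits are above 0 in the siATF4 comparisons, at 0.20 and 0.32 in Srf, and below 0 in the other 5.

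Sorafenib itself was compared with DMSO within each siRNA group. In siCtrl cells 47 of the 77 genes fell and 5 rose, 61% and 6.49%, against 26.9% and 36.3% of all tested genes, with a median of -0.22 against 0.052 over all genes. The large subunit held 30 of the falls and 4 of the rises, and the small subunit 17 and 1. Of these, 35 falls and 2 rises held under every setting and left-out library. At the study's threshold 1 gene was lower (5.15% of tested genes) and 0 higher (12.3%), namely *MRPL50*. It was 20.5 and 24.3 CPM in DMSO and 14.4 and 12.7 CPM in Srf, a fall of 0.70 on the log2 scale (SE 0.087, limma, adjusted p = 1.32e-05). *MRPS28* fell by 0.57, *MRPL13* by 0.56, and *MRPL15*, *MRPL12* and *MRPL47* each by 0.52. *MRPL12* was 246 and 244 CPM in DMSO and 161 and 180.5 CPM in Srf (SE 0.064, limma, adjusted p = 1.21e-05). The rises that held were those of *MRPL10*, from 57.8 and 58.7 to 73.8 and 73.2 CPM (0.33, SE 0.046, limma, adjusted p = 3.84e-05), and of *MRPS21* (0.25). These siCtrl DMSO libraries also serve the siRNA comparisons in DMSO, and the siCtrl Srf libraries those in Srf.

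In siY/T cells 40 genes fell with Srf and 6 rose (51.9% and 7.79%, against 23.5% and 29.5% of tested genes, median -0.15 against 0.038), and the calls numbered 29 without siY/T Srf replicate 1. The falls were led by *MRPS28* (-0.44), *MRPL35* (-0.41) and *MRPS11* (-0.40), and *MRPL45*, which tethers the ribosome to the inner membrane, rose by 0.35. In siATF4 cells 32 fell and 6 rose (41.6% and 7.79%, against 22.4% and 27.9%, median -0.12 against 0.029), with 24 calls without siATF4 Srf replicate 1. *MRPS18A* fell by 0.75 (SE 0.054, limma, adjusted p = 3.13e-07), the largest fall of any of the 77 genes in the 7 comparisons, and at the study's threshold it was the only one of the 77 called in this comparison (2.95% of tested genes lower, 5.68% higher), while 0 were called in siY/T cells (4.14% and 5.83%). *MRPS25* was 76.1 and 73.2 CPM in siATF4 DMSO and 92.0 and 92.1 CPM in siATF4 Srf cells and rose by 0.30. The 3 comparisons with Srf use separate libraries, and 22 genes (28.6%, against 8.87% of tested genes) fell in all 3, 13 of the large and 9 of the small subunit, *MRPL12*, *MRPL13*, *MRPL15*, *MRPS7* and *MRPS28* among them. No gene of the 77 rose in all 3 (0%, against 12.9%).

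**Figure D5:**
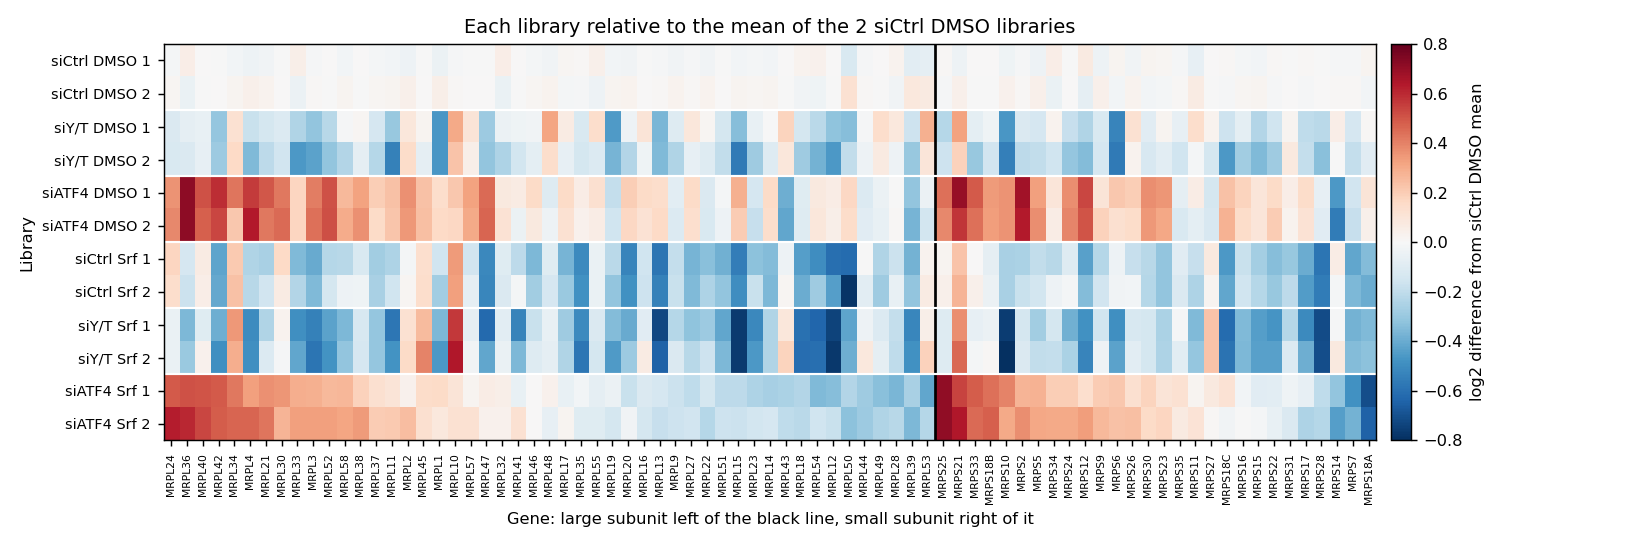
Log2 difference of each library from the mean of the 2 siCtrl DMSO libraries for the 77 genes, in 1 row per library and 1 column per gene, large subunit left of the black line and small subunit right of it, red for higher and blue for lower. The siATF4 DMSO libraries were above that mean for 59 and 58 genes, the siATF4 Srf libraries for 43 each, and the siY/T and siCtrl Srf libraries for 9 to 25, while *MRPL10*, *MRPS21* and *MRPS14* run against their neighbours.

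The genes were also counted by role in the ribosome, without a test between the roles, and the shares of all tested genes given above for each comparison apply to these counts too. The 4 stalk proteins guide translation factors and tRNA, and among them *MRPL1*, *MRPL11* and *MRPL12* fell and *MRPL10* rose in both siY/T comparisons. With siATF4 in Srf the same 3 rose (0.34, 0.36 and 0.26) and *MRPL10* fell. In DMSO this opposition was not seen with siATF4, where *MRPL10* and *MRPL11* rose and *MRPL1* and *MRPL12* were not called. Of the 7 small subunit proteins along the mRNA path and the decoding centre (*MRPS2*, *MRPS5*, *MRPS7*, *MRPS9*, *MRPS11*, *MRPS12* and *MRPS24*), 5 rose and 1 fell with siATF4 in DMSO (median 0.35) and 6 rose in Srf (median 0.42), while 5 fell with siY/T in DMSO and 1, *MRPS24*, fell with siY/T in Srf. The exceptions were *MRPS7*, which fell by 0.17 in DMSO and was at -0.04 in Srf, and *MRPS11*, which was at -0.01 in DMSO. Of the 7 proteins around the exit tunnel, *MRPL24* and *MRPL47* rose with siATF4 in both arms (0.40 and 0.57 in Srf), *MRPL45* rose in DMSO, and *MRPL39* fell in DMSO and *MRPL44* in Srf, so that the medians were -0.10 and 0.06. *MRPL22* and *MRPL23* were not called in either (-0.12 and 0.11, -0.16 and 0.06). *MRPL4*, which lines the upper tunnel in bacteria, was not on this list, so the medians leave it out. It rose with siATF4 in both arms, from means of 61.2 to 92.7 CPM in DMSO and 52.1 to 80.9 CPM in Srf.

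Among the 4 proteins of the peptidyl transferase core, *MRPL3* and *MRPL27* rose with siATF4 in both arms, *MRPL2* in DMSO (0.35) and *MRPL16* in neither (0.13 and 0.04). Of the 7 proteins of the central protuberance, which contacts the small subunit and the tRNAs, *MRPL38*, *MRPL40* and *MRPL52* rose in both arms, by 0.34, 0.46 and 0.48 in Srf, where *MRPL18* (0.19) and *MRPL46* (0.32) rose as well. *MRPL48* was at -0.07 and 0.10 and *MRPL55* at 0.10 and -0.03. *MRPL58*, a peptidyl-tRNA hydrolase built into the large subunit that frees stalled ribosomes, rose by 0.28 and 0.42. *MRPL55* and *MRPL32* were the only 2 of the 77 called in none of the 7 pairwise comparisons, and *MRPL4*, *MRPL13*, *MRPL15*, *MRPL52* and *MRPS16* were called in all 7. *MRPL32* was between 31.7 and 41.1 CPM in all 12 libraries.

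The same direction with siATF4 was seen in mitoribosomal subunits with other symbols. *DAP3*, *AURKAIP1*, *CHCHD1*, *PTCD3* and *GADD45GIP1* are structural proteins of the ribosome, and 4 of the 5 rose with siATF4 in each arm and 0 fell. Of all tested genes 33.4% rose and 34.4% fell with siATF4 in DMSO, and 35.8% and 37.4% in Srf. With siY/T only *AURKAIP1* and *DAP3* fell in DMSO (22.8% of tested genes fell). In Srf only *AURKAIP1* fell (18.8% of tested genes), while *PTCD3* rose by 0.20. *AURKAIP1* was, in DMSO, 106 and 103 CPM with siCtrl, 88.3 and 80.3 CPM with siY/T and 124 and 125 CPM with siATF4, log2 fold changes of -0.31 and 0.25 (limma, adjusted p = 0.00183 and 0.00691). *KGD4*, once called *MRPS36* and now assigned to a metabolic enzyme complex, rose by 0.18 and 0.23 with siATF4. It also rose with siY/T in Srf, by 0.32, and its change of 0.07 with siY/T in DMSO was not called.

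Genes that act on the mitochondrial ribosome were counted from lists written for this purpose. The shares of all tested genes that rose and fell with siATF4, 33.4% and 34.4% in DMSO and 35.8% and 37.4% in Srf, apply to these counts as well. Of 27 assembly factors 19 rose and 3 fell with siATF4 in DMSO and 19 rose and 5 fell in Srf (medians 0.28 and 0.32), with *NGRN*, needed for the ribosomal RNA of the large subunit, up by 1.07 and 0.96. Of 17 translation factors 8 rose and 3 fell in DMSO and 15 rose and 1 fell in Srf (median 0.32), led by the elongation factor *GUF1* (0.92) and the initiation factor *MTIF2* (0.74). Of 17 genes for the transcription and upkeep of mitochondrial DNA, with nuclear regulators, 13 rose and 1 fell in DMSO and 14 rose and 2 fell in Srf (medians 0.30 and 0.41). This list includes the replication genes *POLG*, *POLG2*, *TWNK* and *SSBP1*. *TFAM*, which packages mitochondrial DNA and starts its transcription, was, in DMSO, 72.9 and 73.1 CPM with siCtrl, 47.8 and 51.3 CPM with siY/T and 82.1 and 81.1 CPM with siATF4, and 43.5 and 43.7 CPM with siCtrl in Srf, so it fell by 0.55 with siY/T and by 0.74 with Srf. The coactivator *PPARGC1B* rose by 0.97 with siATF4 and fell by 0.88 with siY/T in DMSO. Its relative *PPARGC1A*, on the same list, went the other way with siY/T in DMSO, from 0.093 and 0.022 CPM with siCtrl to 0.47 and 0.65 CPM. These levels are very low, and it reached 1 CPM only in the siY/T Srf libraries. With siY/T in DMSO 4 of the 27 assembly factors fell and 5 rose, 5 of the 17 translation factors fell and 2 rose, and 10 of the 17 genes for transcription and upkeep of mitochondrial DNA fell and 1 rose (median -0.24), where 22.8% of tested genes fell and 37.3% rose.

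As a scale for these counts, the cytosolic ribosomal protein genes and the nuclear-encoded genes of the respiratory chain were counted in the same fit. The second list includes genes of the ATP synthase and is called respiratory chain genes here for short. Among all tested genes, 37.3% rose and 22.8% fell with siY/T in DMSO, and 33.4% rose and 34.4% fell with siATF4 in DMSO. With siATF4 in Srf 35.8% rose and 37.4% fell, and with Srf in siCtrl cells 36.3% rose and 26.9% fell. Of 84 cytosolic ribosomal protein genes 71 fell with siY/T in DMSO and 70 rose with siATF4 in DMSO, more of them than of the mitochondrial set, but with Srf in siCtrl cells 23 rose and 6 fell (median 0.08) where 47 of the 77 mitochondrial genes fell. Of 77 respiratory chain genes 33 rose and 10 fell with siATF4 in DMSO, 43 rose and 5 fell in Srf, and 21 rose and 4 fell with siY/T in DMSO. With Srf in siCtrl cells 13 respiratory chain genes rose and 16 fell (median 0.02). The differences between the lists were not tested.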

How the data were processed

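RNA of HLE cells from 12 libraries was sequenced by the authors, who aligned the reads with STAR (hg19, unique hits only), counted them in RefSeq mRNA exons with QuasR and deposited CPM per Entrez identifier. Each deposited column of CPM held whole multiples of 1 read within 0.02 read (100% of values), so reads were recovered for count tests. Labels and paper differ on replicates (2 libraries here, biological triplicates in the methods), instrument, kit and dose. The strand setting is not given in the sources used here. Symbols came from RefSeq (26111 of 26258 identifiers) and positions from GENCODE on GRCh37.

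Genes reaching 1 CPM in 2 libraries or more were fitted as log2(CPM + 0.5) with limma 3.58.1 (trend, R 4.3.3), 1 coefficient per group, Benjamini-Hochberg adjustment over 13515 genes. Depth is 41408348 to 53619732 reads, and counting error alone is small. The steps were tested on simulated data. Alternatives were pseudocounts 0.1 and 1, no filter or 5 CPM, TMM, quantile normalization, a replicate block, only the groups compared, edgeR 4.0.16, DESeq2 1.42.0, the study's threshold, subunits by structure and leaving out each library. The summed ratios without *MRPL12* and without *MRPS27* were added after the data were seen. Lists of genes and motifs and the rule for named genes (up to 5 largest rises and falls called per subunit and comparison, 3 per difference of effects, the 3 highest and lowest mean CPM, all genes of the role groups, other mitoribosomal subunits, up to 3 called genes per list and direction, and the siRNA targets) were written with earlier results of these data known. Tables were read with pandas 2.3.3 and drawn with matplotlib 3.10.9 in Python 3.11.15.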

Additional observations from a re-analysis of the deposited data

Results flagged for a closer look

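For 9 of the genes the effect of an siRNA in Srf differed from that in DMSO by the limma test of the difference itself and was among the largest. With siY/T the difference on the log2 scale was 0.56 for *MRPL50*, 0.29 for *MRPL20* and 0.30 for *MRPL47*. *MRPL20* changed by -0.14 in DMSO and 0.16 in Srf, neither of them called, and its difference was no longer called with quantile normalization or edgeR, or without either siCtrl DMSO library, among others. With siATF4 the difference was -0.41 for *MRPL10*, -0.38 for *MRPS18A* and -0.29 for *MRPS21*, and 0.44 for *MRPS28*, 0.43 for *MRPL33* and 0.39 for *MRPL35*. The difference of *MRPS21* was not called without siCtrl DMSO replicate 1, siATF4 DMSO replicate 1, siCtrl Srf replicate 2 or siATF4 Srf replicate 1, at -0.23 to -0.27. *ACTL6A*, which shares exonic bases with *MRPL47*, fell by 0.59 with Srf in siCtrl cells, where *MRPL47* fell by 0.52, and its part in that value was not tested.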

How the results depend on the processing

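No call of a single gene changed direction under an alternative. Each count, subunit median and call was tallied once per setting, so 1 result can appear several times. Under settings other than leaving out a library 11 tallies of counts and 20 of subunit medians moved while 88 and 178 did not. For the calls of single genes, 169 tallies were losses and 3361 were not under those settings. With a library left out 443 were losses and 3793 were not. The share of calls lost at least once is larger. With Srf in siY/T cells 20 of 40 falls and 3 of 6 rises held throughout, and in siATF4 cells 17 of 32 falls and 1 of 6 rises. At the study's threshold the calls were 0 (siY/T in DMSO), 4 (siATF4 in DMSO), 1 (siY/T in Srf), 9 (siATF4 in Srf), 1 (Srf in siCtrl), 0 (Srf in siY/T), 1 (Srf in siATF4), 0 (siY/T, Srf minus DMSO) and 0 (siATF4, Srf minus DMSO). Fitting only the groups compared gave 24 calls for Srf in siY/T and 3 for the siY/T difference between arms. With siY/T in DMSO the large subunit median was -0.19 under TMM scaling, quantile normalization and edgeR and -0.21 under DESeq2, and the small subunit median -0.22 under TMM and edgeR and -0.24 under DESeq2. With siY/T in Srf the large median was -0.10 under all 4 and the small median -0.11 under quantile normalization. For Srf, the large median in siCtrl cells was -0.25 under TMM and edgeR and -0.26 under DESeq2, in siY/T cells -0.19 under quantile normalization and edgeR and -0.18 under DESeq2, and in siATF4 cells -0.15 under edgeR and DESeq2. The causes were not tested. The median of all genes with siY/T in DMSO went from 0.069 to -0.021 under quantile normalization. The calls over all genes in that comparison went from 5043 higher and 3079 lower to 3842 higher and 4156 lower.

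With 1 library left out, calls ranged from 28 to 44 (siY/T in DMSO), 36 to 53 (siATF4 in DMSO), 14 to 38 (siY/T in Srf), 56 to 64 (siATF4 in Srf), 41 to 57 (Srf in siCtrl), 29 to 48 (Srf in siY/T), 24 to 47 (Srf in siATF4), 2 to 24 (siY/T, Srf minus DMSO) and 16 to 34 (siATF4, Srf minus DMSO). A lone library is then assumed to vary like the other groups. The large subunit median reached from -0.152 to -0.061 with siY/T in DMSO, from 0.197 to 0.246 with siATF4 in Srf, from -0.228 to -0.116 with Srf in siY/T cells (small subunit -0.195 to -0.059), and from 0.031 to 0.144 and 0.062 to 0.135 for the siY/T and siATF4 differences between arms.

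Groups share replicate numbers 1 and 2, but the labels do not say that a number marks a shared culture, and the correlations of same-numbered libraries' deviations ran from -0.28 to 0.19. With the replicate block the calls were 43, 48, 29, 63, 52, 44, 35, 7 and 23 in the order above.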
